A study of Mus musculus with 96 samples.

Results

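The Megf6 to Prdm16 block is the distal part of an engineered deletion in band 4E2 of mouse chromosome 4. It was taken as every HindIII fragment of chromosome 4 (mm9 build) whose end lies between 153.4 Mb and the distal breakpoint of the deletion, which gave 234 of the 48320 fragments of the chromosome (0.484%). The first of them starts at position 153396303 and the last ends inside Plch2. They were taken by position, with no use of their own read counts on +Bl6 or +DBl6. The distal breakpoint is where captures on Df resume among the captures on Df and +129, so that captures on +129 also entered that limit. They span 1.01 Mb, with a median length of 2896.5 bp against 2133 bp over the chromosome, and a GC content of 51.7% against 42.3%. The gencode vM1 annotation places 28 genes there, 15 of them protein-coding, 3 lincRNAs and 3 pseudogenes. From the proximal end, the protein-coding genes are Ccdc27, Trp73, Wdr8, Tprgl, Megf6, Arhgef16, Prdm16, Actrt2, Ttc34, Mmel1, 2810405K02Rik, Tnfrsf14, Hes5, Pank4 and Plch2, the last of which (chr4:154357225-154417263) runs past the distal end of the block.

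Contacts were measured by paired-end 4C sequencing (PE-4Cseq), which counts the DNA fragments ligated to 1 chosen fragment, the viewpoint, after crosslinking. The cells were mouse embryonic fibroblasts (MEFs) from 13.5 day embryos of Df/Dp male chimeras crossed to C57BL/6J, at confluent passage 4. Lines 129S5E71 and 129S5E98 carried the deletion over an intact C57BL/6J homologue (df/+Bl6), and lines 129S5E117 and 129S5E118 were +129/+Bl6 controls. A polymorphism in the viewpoint separated the alleles, so that each line gave 2 libraries per viewpoint. The deleted 129S5SvEvBrd chromosome is called Df and its intact homologue +DBl6, and the control homologues are +129 and +Bl6, each with 2 libraries at each of 12 viewpoints. Each line is 1 embryo culture, and the +129 and +Bl6 libraries of a line come from the same cells. First replicates (E71, E117) and second replicates (E98, E118) also differed in how the PCR products were purified.

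In PE-4Cseq, the number of reads on a fragment falls with its distance from the viewpoint, and departs from that decline where the chromatin folds into domains or where distant loci come together. Boundaries between such domains are often marked by the DNA-binding factor CTCF together with cohesin. Megf6 encodes a protein with repeated EGF-like domains. Prdm16 encodes a zinc finger transcription factor known for its part in brown fat and in blood stem cells, and Trp73 encodes p73, a relative of the tumour suppressor p53. Hes5 is a target of Notch signalling, Tnfrsf14 encodes a receptor of the tumour necrosis factor family, and Plch2 encodes a phospholipase C.

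Viewpoints 9 and 10 lie inside the block. Viewpoint 9 (153.4 Mb by its label) is the HindIII fragment chr4:153426941-153428557, in no annotated gene and next to the 3′ end of Trp73. Viewpoint 10 (153.9 Mb) is the fragment chr4:153936949-153937779, in an intron of Prdm16. The HindIII-side primers that read out of these fragments are shown because every value from viewpoints 9 and 10 starts at them. Both match chromosome 4 of mm9 once on the plus strand, at chr4:153428531-153428557 and chr4:153937758-153937779, and the HindIII site is in capitals.
Viewpoint 9 primer: tctaaatatcaagtccagataAAGCTT
Viewpoint 10 primer: gtggttgcactccaggAAGCTT

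The fragments captured in the most libraries are shown with the HindIII site at their proximal end in capitals and the bases that follow it, as the plus strand of mm9. A captured fragment is read from such an end. The Wdr8 fragment, chr4:153515516-153525225, begins just before the 5′ end of Wdr8 and is printed at chr4:153515510-153515569. The Ccdc27 fragment, chr4:153396303-153402426, overlaps exons of Ccdc27 and of the lincRNA 1190007F08Rik (printed at chr4:153396297-153396356). The intergenic fragment chr4:154133324-154133769 lies between Actrt2 and Ttc34 (printed at chr4:154133318-154133377). The Megf6 fragment is chr4:153591913-153602579 (printed at chr4:153591907-153591966), and the Tnfrsf14 fragment, chr4:154294140-154302580, holds a start of Tnfrsf14 (printed at chr4:154294134-154294193). The Prdm16 intron fragment chr4:153910823-153916406 had the most reads from viewpoint 10 and is printed at chr4:153910817-153910876.
Wdr8 fragment: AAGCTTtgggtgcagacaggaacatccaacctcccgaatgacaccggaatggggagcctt
Ccdc27 fragment: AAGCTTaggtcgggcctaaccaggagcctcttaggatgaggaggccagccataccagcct
Intergenic fragment: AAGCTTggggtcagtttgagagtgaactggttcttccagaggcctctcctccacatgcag
Megf6 fragment: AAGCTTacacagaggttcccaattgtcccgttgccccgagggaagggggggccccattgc
Tnfrsf14 fragment: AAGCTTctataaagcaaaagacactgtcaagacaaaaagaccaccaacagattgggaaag
Prdm16 intron fragment: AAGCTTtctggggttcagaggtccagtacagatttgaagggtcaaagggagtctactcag

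At the other extreme, the 2 fragments captured least often are shown. The fragment chr4:153679152-153679262, 111 bp long and distal to Arhgef16, had no read in any of the 70 libraries (printed at chr4:153679146-153679205). Its ends have 3 and 1 exact copies among the other HindIII ends of the genome, and only unique hits were counted. The adjoining fragment chr4:153679263-153684494, whose ends have 5 and 1 exact copies, was captured in 49 of the 70 libraries. The part of such copies in the missing reads was not tested. The fragment chr4:154179955-154179970 is 16 bp long, so that HindIII sites stand at both ends of its printed sequence (chr4:154179949-154179970), and was captured in 2 libraries.
Uncaptured fragment: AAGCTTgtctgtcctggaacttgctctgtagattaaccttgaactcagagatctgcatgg
Shortest fragment: AAGCTTttccatgttgAAGCTT

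The libraries were checked before the block was described. Fragments within 20 kb of a viewpoint were left out throughout, and a share is given as a percentage of the chromosome 4 reads outside that zone. Of the 72 libraries of the intact chromosomes, 70 held 64058 to 3969613 reads (median 962004.5), and the +129 and +Bl6 libraries of E117 at viewpoint 10 held 444 and 1255 reads and were left out. Replicate pairs whose read counts at fragments over 1 Mb from the viewpoint correlated above 0.9 on the log scale were added up as 1 library in the tests. This applied to +DBl6 at viewpoints 4, 6, 7 and 8 and to +129 and +Bl6 at viewpoint 9. The +DBl6 library of E98 at viewpoint 10, the shallowest used inside the block with 18919 reads outside the zone, stood apart. Its read counts at such fragments correlated with those of the +Bl6 library of E118 (r = 0.58, across 1426 shared fragments), and the library of E98 labelled Df held 31156 reads there against 83156 for +DBl6 (37.5%), although viewpoint 10 is deleted on Df. At the other viewpoints inside the deletion the reads labelled Df came to 0.0442% to 0.636% of those labelled +DBl6. At viewpoint 11 the +DBl6 library of E71 correlated with the +Bl6 library of E117 (r = 0.72, across 1613 shared fragments), against -0.26 to 0.37 for the 90 other pairs of +DBl6 and control libraries.

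The reads labelled Df in the block are given as a description only, since the limits of the deletion were found from captures on Df. From the 4 viewpoints outside the deletion (1, 2, 11 and 12), the 8 Df libraries held 0.0147% to 0.415% of their reads in the block. The intact chromosomes held 0.187% to 2.69% at viewpoints 1 and 2 and 1.20% to 4.98% at viewpoints 11 and 12. The Df libraries captured 8 to 114 of the 234 fragments, so that the block was not free of reads labelled Df. Whether these are reads assigned to the wrong allele was not tested.

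The share of reads in the block rose towards the viewpoints inside it. From viewpoint 1, 5.42 Mb away, the +129 libraries held 1.81% and 1.54% of their reads in the block, the +Bl6 libraries 1.63% and 2.15%, and the +DBl6 libraries 2.69% and 1.81%. Viewpoint 2, in the Ctnnbip1 gene and 4.47 Mb away, gave the lowest shares. These were 0.953% and 0.430% for +129, 0.633% and 0.187% for +Bl6, and 0.450% and 0.286% for +DBl6, all below those of viewpoint 1, which lies farther from the block. From viewpoints 3 and 4 (2.96 and 2.41 Mb away) the 12 libraries ranged from 1.51% to 2.69%.

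From viewpoints 5 to 8, which are 1.79 to 0.474 Mb proximal to the block, the shares ranged from 2.66% to 6.29%. They did not rise in step with proximity. At viewpoint 5 all 6 libraries lay between 4.37% and 5.28%, whereas at viewpoint 7, which lies 0.912 Mb away against 1.79 Mb, they lay between 2.66% and 4.68%. On the distal side, viewpoint 11 (0.518 Mb away) gave 4.32% in +129 E118, 4.44% and 3.67% in +Bl6, and 4.59% and 3.61% in +DBl6. The +129 library of E117 at viewpoint 11 held 1.20%, below every other library there. Viewpoint 12, 1.13 Mb away in the Agrn gene, gave 3.96% and 3.85% in +129, 4.98% and 4.67% in +Bl6, and 4.10% and 4.18% in +DBl6.

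From inside the block, the share was of another order. At viewpoint 9 the +129 libraries held 29.7% and 30.5% of their reads in the block, the +Bl6 libraries 29.9% and 30.6%, and the +DBl6 libraries 37.5% and 35.6%. At viewpoint 10 the single +129 library held 61.7% (95% Wilson interval 61.6% to 61.9%), the single +Bl6 library 59.3% (59.1% to 59.4%), and the +DBl6 libraries 64.5% and 61.9%. Such intervals cover counting error only, since PCR reads are not independent molecules. Viewpoint 10 thus kept most of its reads within the block, and viewpoint 9, which lies near its proximal end, did not.

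**Figure D1:**
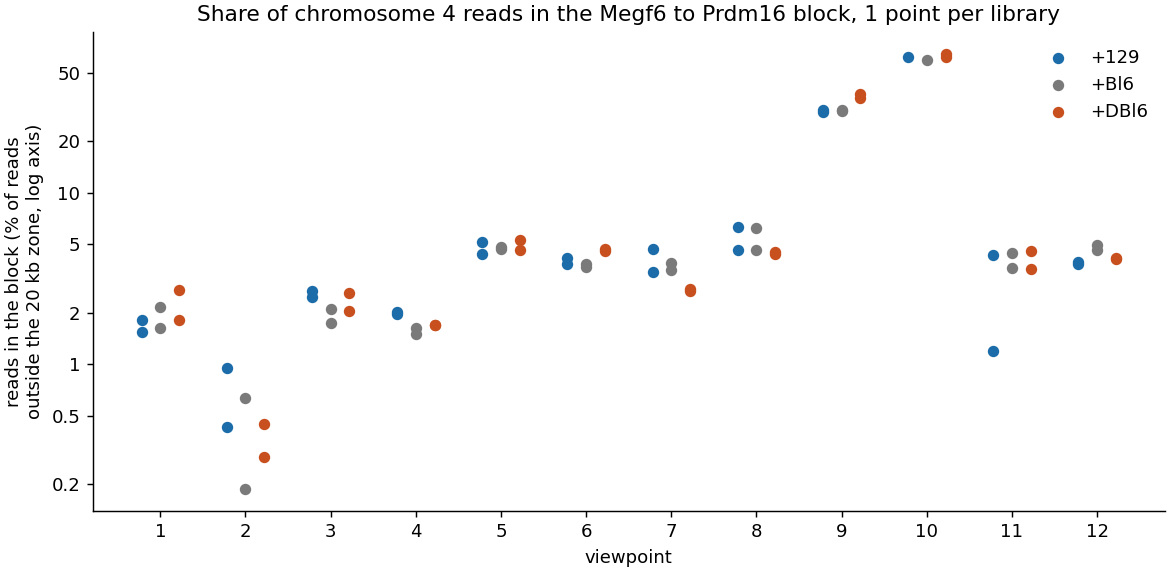
Reads in the block as a percentage of chromosome 4 reads outside the 20 kb zone (y axis, log scale) for each of the 70 libraries, by viewpoint (x axis) and chromosome (colour). Viewpoints 9 and 10, inside the block, sit at 29.7% to 64.5%, and every other library lies at or below 6.29%.

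For a description at matched distance, the block was set against the interval at the same distances on the proximal side of each of viewpoints 1 to 8. Over 44 libraries or sums of libraries, the median ratio of block reads to reads of this mirror interval was 2.41, and 38 of the 44 were above 1. From viewpoint 5 the ratio was 3.28 to 5.64 (median 4.69), and from viewpoint 1 it was 2.75 to 6.10 (median 4.07). Viewpoint 2 gave the widest range, 4.00 to 133 (median 18.5). Its mirror interval held only 10 to 287 reads, on 4 to 16 captured fragments of 326, so these ratios rest on small counts. From viewpoint 4 the median was 1.38, with 4 of 5 above 1. Viewpoint 8 was the exception in direction, with 0.291 to 0.405 and none of 5 above 1. Its mirror interval, chr4:151432978-152444671, lies wholly within the deleted interval, which starts at position 150083826 and spans 4.33 Mb, as found from the fragments where Df captures stop and resume. The mirror interval of viewpoint 7 (chr4:150553198-151564891) also lies wholly within it, and its ratios were 1.23 to 2.07.

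Counting captured fragments instead of reads gave a smaller median ratio over the 44, but not at every viewpoint. Per fragment, the share captured in the block over that in the mirror interval had a median of 1.69 over the 44. At viewpoint 8 it was 0.90, against 0.30 in reads and so nearer to 1. At viewpoint 3 it was 2.83, against 2.41 in reads. Base composition differs along the chromosome, and its part in the ratios was not tested. Only unique hits were counted, and the uniqueness of fragment ends was examined in the block but not in the mirror intervals. Its part in the ratios was not tested either.

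**Figure D2:**
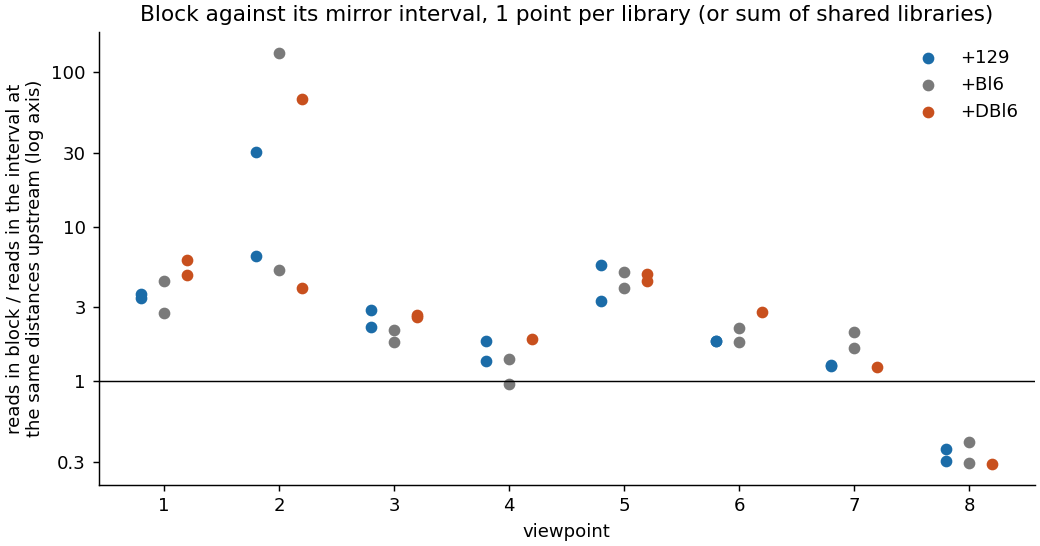
Reads in the block divided by reads in the interval at the same distances on the proximal side of the viewpoint (y axis, log scale), 1 point per library or sum of shared libraries, for viewpoints 1 to 8 (x axis). The line marks a ratio of 1; 38 of 44 points lie above it, and the 5 points of viewpoint 8 lie below it.

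Within the block, reads were unevenly spread over its 12 whole windows of 80 kb, numbered from the proximal end. Window 2, chr4:153520001-153600000, holds most of Wdr8, Tprgl and the 5′ part of Megf6. In the 48 libraries of viewpoints 1 to 8 it took a median of 14.3% of the block's reads (range 0.811% to 45.3%), ranked first in 19 and was among the top 3 windows in 34. Window 3, chr4:153600001-153680000, with the rest of Megf6 and Arhgef16, took a median of 10.6% and ranked first in 11. Window 6, chr4:153840001-153920000 in the body of Prdm16, took 9.63% and ranked first in 6.

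Windows 4 and 1 held less. Window 4, chr4:153680001-153760000, which holds the 3′ end of Prdm16 and part of the gap between it and Arhgef16, took a median of 2.82%, was never among the top 3, and was among the lowest 3 in 35 of the 48. Window 1, chr4:153440001-153520000, with most of Trp73, took 4.64% although it lies nearest to these viewpoints, but it holds 9 fragments against 17 in window 2 and 22 in window 3. Per fragment, window 3 still held more reads than window 4 in 61 of all 70 libraries, with a median ratio of 2.21. Against its distal neighbour, window 4 was not low per fragment, since window 5 held more reads per fragment in 30 of the 70 (median ratio 0.86). The 14 fragments of window 4, against 22 in window 3 and 25 in window 5, were captured in a median of 67.1% of libraries, against 73.6% in window 3 and 61.4% in window 5, and 12 of the 14 had no other HindIII end within 3 mismatches of either end.

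Distal viewpoints favoured other windows. At viewpoint 11, window 11 (chr4:154240001-154320000, with Mmel1, 2810405K02Rik and Tnfrsf14) took a median of 19.2% of the block's reads and was among the top 3 in all 6 libraries, and window 12 (chr4:154320001-154400000, with Hes5, Pank4 and part of Plch2) took 15.9%. Window 2 took 6.62% there. Viewpoint 12, farther out, returned window 2 to a median of 10.7%, ranked first in 3 of 6 libraries and in the top 3 in 5. Windows of 1 viewpoint share its libraries and their depth, so these ranks are a description.

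**Figure D3:**
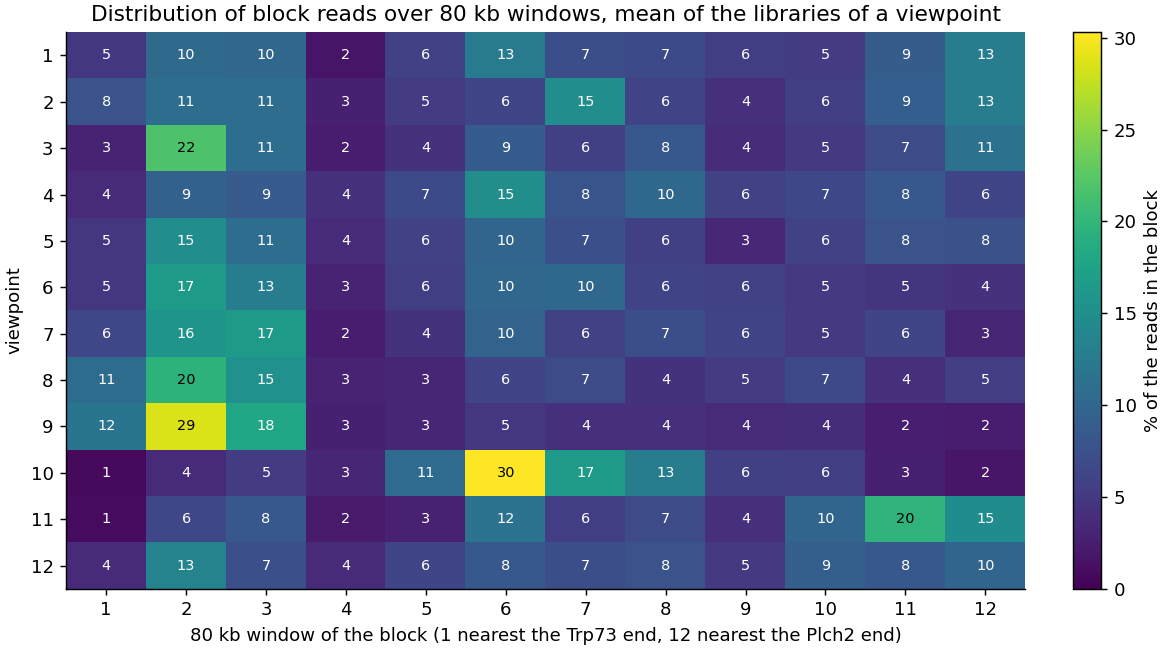
Percentage of the block's reads in each 80 kb window (columns, 1 at the Trp73 end and 12 at the Plch2 end), mean of all libraries of a viewpoint (rows). Window 2 has the highest mean from viewpoints 3, 5, 6, 8, 9 and 12, and window 4 is dark, that is low, in every row. Viewpoint 10 peaks in window 6 and viewpoint 11 in window 11.

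The profile of viewpoint 9 fell in a step between Arhgef16 and Prdm16. In window 2, +129 had 85949 and 87666 RPM (reads scaled to 1000000 reads outside the zone), +Bl6 had 75680 and 77246, and +DBl6 had 121203 and 113285. In window 3, +129 had 47958 and 49958 RPM, +Bl6 54706 and 56287, and +DBl6 71820 and 64739. In window 4, +129 had 7306 and 6608 RPM, +Bl6 10481 and 9678, and +DBl6 8094 and 8260. The drop from window 3 to window 4 was thus 5.22-fold to 8.87-fold in all 6 libraries, or 3.32-fold to 5.65-fold per fragment. Past it each window held 1.64% to 5.17% of the block's reads, with medians that rose to 5.05% in window 6 and fell to 2.10% in window 12. Windows 1 to 3 together held 61.0% to 69.4% of the reads of the 12 windows. Between 20 and 400 kb from viewpoint 9, 18.1% to 24.3% of the reads lay on the distal side, towards Megf6, and 11.5% to 14.0% on the proximal side.

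From viewpoint 10, inside Prdm16, reads per window did not fall from window 4 to window 3. Fragments lying wholly in the Prdm16 gene (74 outside the zone) took 41.0% of all reads in +129, 39.7% in +Bl6, and 41.4% and 40.5% in +DBl6. Window 6, just proximal to the viewpoint, held 28.1% to 32.3% of the block's reads. The viewpoint itself lies in window 7, chr4:153920001-154000000. The 8 block fragments left out around it all belong to the 17 of window 7, so that the peak in window 6 depends on this exclusion. Windows 1 to 3 together held 8.70% to 11.2% of the reads of the 12 windows. Window 4 lay below window 3 although it is nearer, at 21069 against 27112 RPM in +129, 21189 against 28393 in +Bl6, and 21897 against 41286 and 17284 against 33300 in the E71 and E98 libraries of +DBl6. Per fragment, window 3 exceeded window 4 in both +DBl6 libraries (1.20 and 1.23) and not in +129 (0.82) or +Bl6 (0.85). Both control values come from the same cells, line E118, and the E98 library of +DBl6 is the one that stood apart. Reads within 400 kb were 1.18 to 1.26 times as many on the proximal as on the distal side. These are reads per side, not per fragment, and the proximal side holds more fragments.

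Seen from each other, the viewpoints gave summed reads of overlapping range, over unlike numbers of fragments. The 8 fragments within 20 kb of viewpoint 10 took 3076 to 8542 RPM in sum from viewpoint 9. The 14 within 20 kb of viewpoint 9 took 4017 to 6318 RPM from viewpoint 10. These sums were not scaled by the number of fragments. From viewpoint 9, the value in the +DBl6 library of E71 (8542) was above, and that of E98 (5044) below, those of +129 (6524 and 6376), with +Bl6 lowest (3227 and 3076).

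**Figure D4:**
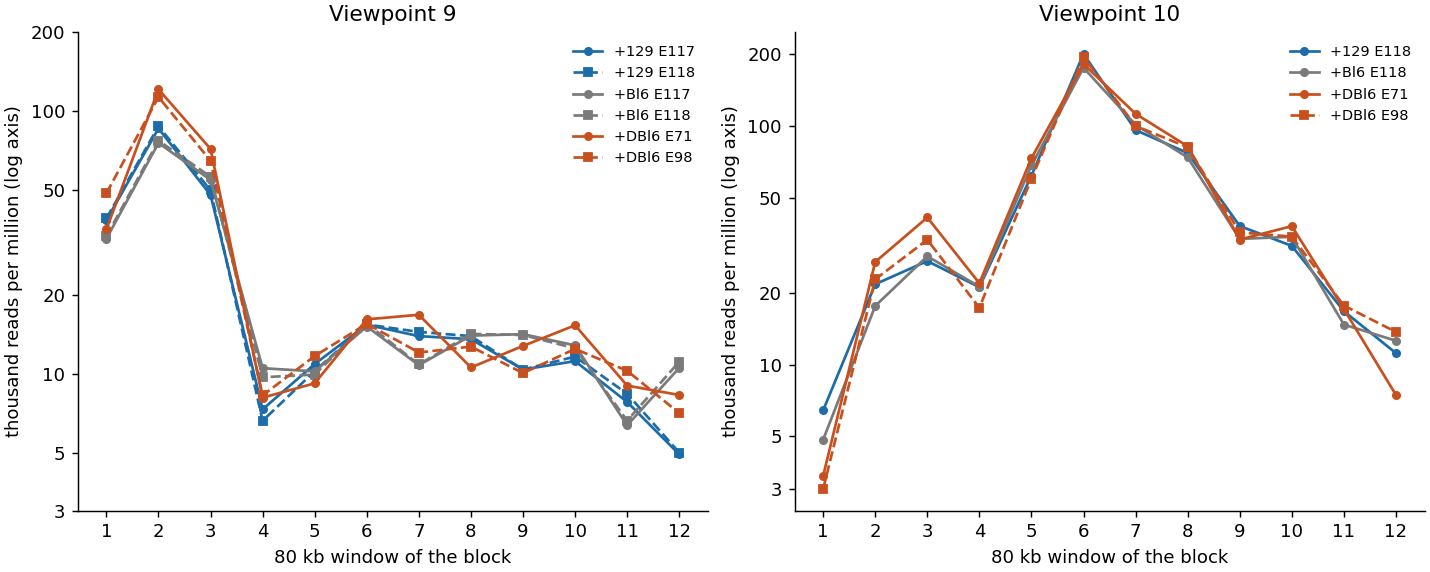
RPM in each 80 kb window of the block (x axis) from viewpoint 9 (left) and viewpoint 10 (right), on a log axis, 1 line per library. From viewpoint 9 all 6 lines drop between windows 3 and 4, and the +DBl6 lines stand above the others in windows 2 and 3; from viewpoint 10 all 4 lines peak in window 6.

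By gene, captures summed over fragments were highest for Prdm16 (84 of the 234 fragments, captured in a mean of 65.4% of libraries). Megf6 (23 fragments, 71.2%) and Plch2 (13 fragments in the block, 76.5%) followed. This order is that of the number of fragments, and the read shares below were not scaled by it. From viewpoints outside the block, the fragments that overlap Prdm16, a gene of 320.7 kb, took a median of 27.6% of the block's reads (range 6.15% to 58.0%). The 105.0 kb of Megf6 took 14.7% (2.74% to 41.0%), and the block part of Plch2 took 7.58% (0% to 23.1%). From viewpoint 9, Megf6 took 22.97% to 29.9% and Prdm16 13.6% to 17.4% of the block's reads. From viewpoint 10, Prdm16, the gene that holds it, took 65.2% to 68.1%, and Megf6 took 3.51% to 4.53%. Of the other 12 protein-coding genes, the medians from outside the block ran from 0.00838% for the small gene Actrt2, an actin-related gene, to 4.27% for Arhgef16.

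At the level of single fragments, a fragment was captured in a median of 70.0% of the 70 libraries, against 62.9% for the 874 fragments in the rest of the deleted interval and 4.29% over the chromosome, where most fragments lie far from every viewpoint. In all, 202 of the 234 were captured in at least 50% of the libraries, and 1 in none. The Wdr8 fragment printed above was captured in 67 libraries (95.7%), the Ccdc27 and intergenic fragments in 63 each, and the Megf6 and Tnfrsf14 fragments in 62 each. At the low end, a fragment of 3880 bp in Wdr8 and Tprgl was captured in 5 libraries (7.14%), between neighbours at 60.0% and 74.3%.

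The rank correlation of capture frequency across the 234 fragments was 0.11 with length and 0.12 with GC content, where fragments share libraries and are not independent. Among 1684144 HindIII ends of the genome, 209 fragments had no other end within 3 mismatches of the 30 bases at either of their own ends, 19 at 1 end and 6 at neither. Median capture was 71.4%, 68.6% and 62.7% in these classes, and the fragment captured in no library was among the 6. The 25 fragments that hold an annotated start of a protein-coding transcript were captured in a median of 74.3% of libraries (range 32.9% to 95.7%) against 70.0% for the 209 others, and had a median length of 7834 bp against 2638 bp. The Prdm16 start fragment, chr4:154009336-154011451, was captured in 75.7%, and the Arhgef16 start fragment, chr4:153673158-153679151, of which the distal end has 97 exact copies elsewhere, in 32.9%.

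Of the fragments printed above, the Ccdc27 fragment had the most reads of the block from viewpoint 9. It had 28137 and 31069 RPM in +129, 30081 and 33042 in +Bl6, and 38005 and 26824 in +DBl6, so that the +DBl6 libraries lay on either side of the controls. The Wdr8 fragment had 17480 and 19343 RPM in +129, 14284 and 15742 in +Bl6, and 20834 and 23882 in +DBl6, where +DBl6 was above both control chromosomes in both lines. From viewpoint 10, the Prdm16 intron fragment had 34346 RPM in +129, 32394 in +Bl6, and 30128 and 35890 in +DBl6, which overlapped.

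**Figure D5:**
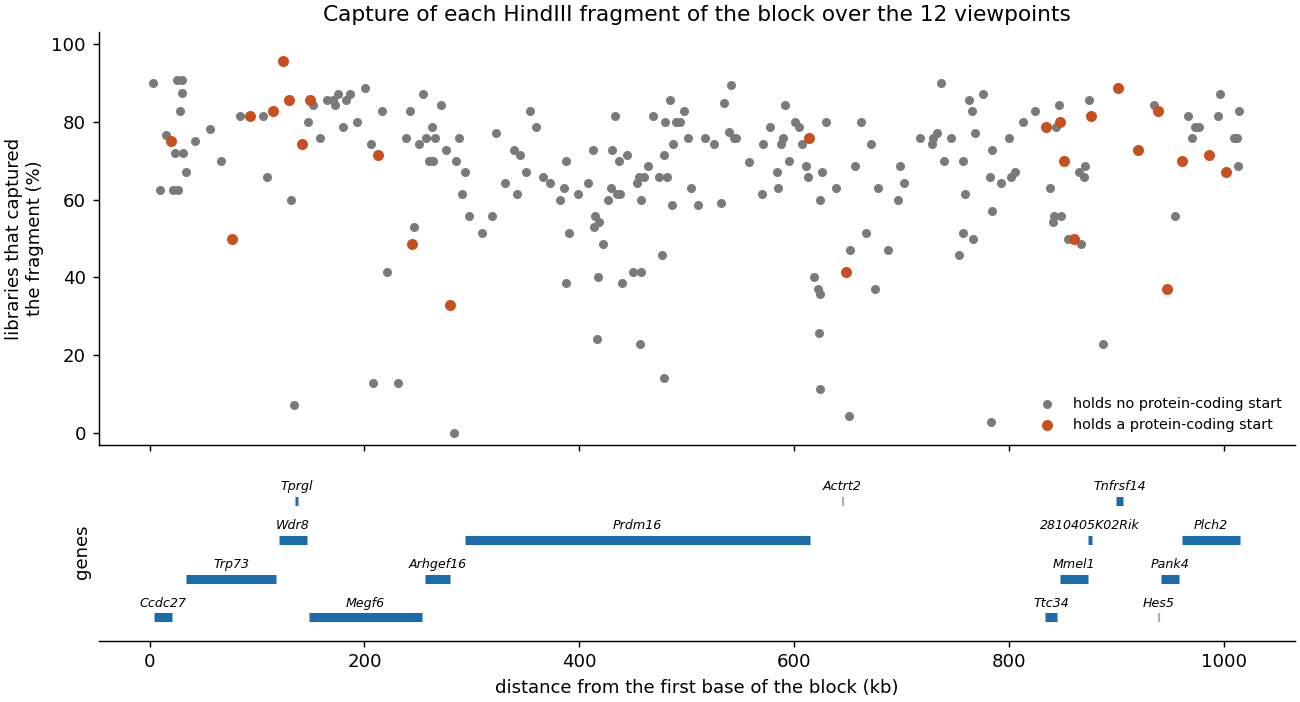
Percentage of the libraries that captured each of the 234 HindIII fragments (upper panel, 1 point per fragment) against the distance from the first base of the block, with protein-coding genes as bars below. Most points lie between 50% and 90%, and fragments that hold a protein-coding start (orange) lie among the others.

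Setting +DBl6 against +Bl6 addressed whether a deletion on one homologue goes with altered contacts of the block on the other. Read counts summed over lengths of chromosome 4 equal to the block, and over 80 kb windows, were tested by quasi-likelihood in edgeR, and p-values were adjusted by Benjamini-Hochberg over all windows of all viewpoints. Of all 1764 such lengths, 0.227% were called at an adjusted p under 0.05, 0.0567% higher and 0.17% lower on +DBl6. The block itself was called at 0 of the 12 viewpoints in this test, and at 0 with an unadjusted p under 0.05, while DESeq2 called it at viewpoint 4 (log2 0.53 ± 0.13 SE, adjusted p = 0.00259), where the +DBl6 side was 1 summed library. DESeq2 called 65 of the 1764 lengths.

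The edgeR log2 differences of the block ran from -0.09 to 0.68 and were above 0 at 9 of 12 viewpoints. The direction depends on the scaling at viewpoints 2, 7 and 11. Scaling by trimmed means (TMM) moved the median length of chromosome by -0.03 to 0.69 relative to scaling by total reads. By total reads the block was above 0 at 8 of 12. Over all 1764 lengths the median difference was -0.0052 with TMM and -0.27 with total reads. The smallest p was at viewpoint 1, with a difference of 0.55 ± 0.30 (SE, an interval of 2 SE from -0.05 to 1.16). At viewpoint 9 the difference was 0.60 ± 0.45, with 1 summed library on the +Bl6 side. At viewpoint 12 it differed by -0.07 ± 0.17, an interval from -0.40 to 0.26.

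Set as plain shares, the ratio of +DBl6 to +Bl6 had a median of 1.05 over the 12 viewpoints and was above 1 at 8. Viewpoints 6, 3 and 9 had the largest ratios (1.23, 1.22 and 1.21), and viewpoints 7 and 8 the smallest (0.73 and 0.82). Without the first replicates of +DBl6 the median turned to 0.965. Where both groups had 2 libraries, an exact two-sided permutation test over lines gave p = 0.333 at viewpoint 12, where the groups did not overlap, and 0.667 to 1 at viewpoints 1, 2, 3, 5 and 11. The smallest p that 2 against 2 libraries allow is 0.333.

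In the 80 kb windows, 0.216% of all 10166 tests over the chromosome were called, 0.197% higher and 0.0197% lower on +DBl6. In the block, 1 of 143 was called, window 2 from viewpoint 9, with the RPM values given above. It was higher on +DBl6 by 0.68 ± 0.12 (log2, SE; adjusted p = 2.72e-05 by edgeR's quasi-likelihood test), and both +DBl6 libraries lay above all control libraries, +129 included. The +Bl6 side of that test was 1 library, the sum of 2 that shared captured fragments. With both +Bl6 libraries kept apart the difference was 0.93 ± 0.07 (adjusted p = 0.115 by edgeR). With captured fragments in place of reads it was 0.51 ± 0.66 (adjusted p = 0.999), and with fragments under 5 reads set to 0 it was 0.64 ± 0.28 (adjusted p = 0.949). Without either +DBl6 replicate the test at viewpoint 9 could not be fitted.

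The next smallest p-values both fell in window 8, chr4:154000001-154080000, which holds the 5′ end of Prdm16 and Actrt2, and did not pass the threshold. From viewpoint 7, +DBl6 had 28.4 and 42.6 RPM there against 5289 and 3220 in +Bl6 and 5981 and 2665 in +129 (log2 -5.53 ± 2.05, adjusted p = 0.597 by edgeR). These +DBl6 libraries were added up, so that the test had 1 library on that side. Scaled by total reads this window was called (adjusted p = 0.0386 by edgeR), with the same limit. From viewpoint 5, by contrast, +DBl6 was the higher, with 3454 and 3491 RPM against 1242 and 2360 in +Bl6, but +129 reached 2980 and 3068 (log2 1.10 ± 0.43, adjusted p = 0.666 by edgeR). Of the 143 tests, 10 had an unadjusted p under 0.05, against 642 of the 10166 over the chromosome. A difference above 0 was seen in 85 of the 143, and in 72 with total reads. Over all 10166 tests the median difference was -0.094, and -0.27 with total reads, so that these counts do not share a zero point with the chromosome.

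The comparison of +129 with +Bl6, the 2 homologues of the same control cells, asked how far the alleles differ in the block without a deletion. It could be fitted at 10 viewpoints, since at viewpoints 9 and 10 each side was 1 library. Of 1504 lengths of chromosome 0.0665% were called, and the block at 0 of 10 viewpoints by edgeR, with an unadjusted p under 0.05 at 1 and by DESeq2 at 2, and DESeq2 also called 0. That 1 was viewpoint 12, where +129 was lower by log2 -0.28 ± 0.11 (adjusted p = 0.987). The differences ran from -0.68 at viewpoint 11, where the +129 library of E117 stood apart, to 0.75 at viewpoint 2. With TMM scaling, 7 of 10 were above 0, and with total reads 6. Over all 1504 lengths the median difference was -0.032 with TMM and -0.010 with total reads.

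In 80 kb windows 0.0% of the 9948 tests over the chromosome were called, and 0 of the 120 in the block by edgeR (3 with an unadjusted p under 0.05) and 0 by DESeq2 (6). The 3 smallest p-values all came from viewpoint 12. In window 2, +129 had 8527 and 7098 RPM against 4667 and 4947 in +Bl6 (log2 0.76 ± 0.28), and +DBl6 had 4452 and 4278. In window 10, chr4:154160001-154240000 with the 5′ part of Ttc34, +129 had 1881 and 2956 RPM against 5174 and 4874 in +Bl6 (log2 -0.98 ± 0.37). In window 12, +129 had 3200 and 2817 against 6955 and 4229 (log2 -0.82 ± 0.35). These 3 windows were picked by their smallest p, so that non-overlap of the alleles in them is no separate result. Each had an adjusted p of 1 by edgeR.

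The study's files also list regions of differential contact between +DBl6 and +Bl6 for each viewpoint, called by the authors on smoothed contact probabilities. The regions of viewpoint 10 covered 66.9% of the block, against 3.65% of the chromosome, and those of viewpoint 4 covered 50.5% against 7.98%. From viewpoint 7 they covered 49.9% of the block against 24.1% of the chromosome, and from viewpoint 8, 38.7% against 10.6%. In the rest of the deleted interval the coverage was 47.6% from viewpoint 7, 45.3% from viewpoint 8, 10.4% from viewpoint 4 and 7.45% from viewpoint 10. At the other end, viewpoint 11 had no region in the block, and viewpoint 9 had 1 region (5.34% against 14.9%), chr4:154265000-154319000, which does not include window 2. Viewpoint 10 is the one where the E98 libraries stood apart and where 1 control library held nearly no reads, and the part of that in its regions was not tested.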

How the data were processed

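PE-4Cseq reads of 96 libraries (12 viewpoints, 4 chromosomes, 2 MEF lines each) were analysed. The authors split read pairs by a polymorphism in the viewpoint, trimmed the captured end to 30 bp and aligned it with Bowtie (version not given in the sources used here) to the borders of HindIII fragments of mm9, with up to 3 mismatches and unique hits only; the deposited values are read counts per fragment. The deposited lists of differential regions give a start and an end without a score, and no value of the authors' tests was used.

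Fragments were numbered by their mm9 end and annotated with gencode vM1. A fragment within 20 kb of the viewpoint was left out, libraries under 10000 reads were left out, and replicate libraries with r above 0.9 over fragments more than 1 Mb away were added up. The limits of the deletion were found as the fragments where captures on Df stop and resume. Read counts over block-length and 80 kb windows that held 10 reads or more (5 captured fragments) in 50% or more of a fit's libraries were tested per viewpoint with edgeR 4.0.16 (TMM, quasi-likelihood) in R 4.3.3, adjusted by Benjamini-Hochberg over all windows and viewpoints of a comparison at 0.05. DESeq2 1.42.0 was an alternative, as were total reads, no filter, captured fragments, at least 5 reads, a 50 kb zone, libraries as labelled, small libraries kept, a cap at the 99th percentile, the replicate block and leaving out each line. The fit was tested on simulated data. Library depth was 64058 to 3969613 reads, of which 18709 to 2279079 lay outside the zone and set the counting error of each share. The standard error is the log2 difference divided by the square root of F.

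Replicate numbers pair +129 and +Bl6 libraries, which come from the same line, with a correlation of same-numbered deviations of 0.0386 to 0.448 (median 0.297, 11 viewpoints). For +DBl6 and +Bl6 the number marks only the purification (-0.0509 to 0.571, median 0.00356). The main fits did not use this pairing, which entered only with the replicate block. With 2 lines per genotype, p-values measure at most the spread between these lines. Where one side of a fit was a summed or single library, that side had no spread between lines to measure. This holds for the window called from viewpoint 9, where the +Bl6 side was a summed library.

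Named were the genes with most captured fragments and those at viewpoints 9 and 10, the windows past the threshold and the 3 with the smallest p per comparison, the 5 fragments captured in most libraries, and those with most reads from viewpoints 9 and 10. The least captured fragments were named after their values were seen. The block, its gene list and the tests were chosen with earlier results of these data known.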

Additional observations from a re-analysis of the deposited data

How the results depend on the processing

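The block as a whole was called on +DBl6 against +Bl6 at 0 viewpoints in edgeR, at 1 with DESeq2 and at 2 with captured fragments (viewpoints 4 and 10, each with 1 library on one side, and viewpoint 10 with the E98 library that stood apart), and at 0 under every other setting run. On +129 against +Bl6 it was called at 0 under all settings run. In 80 kb windows of the block, +DBl6 against +Bl6 gave 1 call, 2 with total reads, 5 with DESeq2 (which called 405 of 10166 over the chromosome), and 0 with captured fragments, with at least 5 reads, with libraries as labelled and with the replicate block. The replicate block could be fitted at 6 viewpoints, not including viewpoint 9, so the loss there follows from its construction. Leaving out 1 replicate at a time gave 0 to 1 calls, with 0 where a +DBl6 replicate was left out and viewpoint 9 could not be fitted. On +129 against +Bl6 the count was 0, but 8 with libraries as labelled (1254 of 11351 over the chromosome), all at viewpoint 9, where the 2 libraries of each allele shared captured fragments; the replicate block gave 0 calls.

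The median ratio of the block share, 1.05, was 1.18 with captured fragments and 0.965 to 1.10 when 1 replicate was left out, with 0.965 without the first replicates of +DBl6, which turned its direction; the cause was not tested. The median ratio to the mirror interval, 2.41, was 1.59 with captured fragments, 2.40 with fragments capped at the 99th percentile and 2.23 with libraries as labelled, and lay between 2.17 and 2.64 when 1 replicate was left out. Of 102 values for single windows and viewpoints under other settings, 97 kept their direction and their side of the threshold. Among the rest, 3 lost the call (window 2 from viewpoint 9, given above) and 1 gained it (window 8 from viewpoint 7 with total reads). The remaining 1 turned: window 12 from viewpoint 12, +129 against +Bl6, was 0.078 with captured fragments. Only window 2 from viewpoint 9 was called in the main fits, so most of the 97 are values that stayed uncalled. Settings that could not be fitted are not among the 102. An alternative chosen after seeing the data, without the +DBl6 libraries of E98 at viewpoint 10 and of E71 at viewpoint 11, gave 0 viewpoints, 1 window and a median ratio of 1.06. With 2 lines per genotype, and 1 summed or single library on one side at 6 viewpoints, small differences could not be detected.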
